A study of Homo sapiens with 4 samples.

Results

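The tricarboxylic acid (TCA) cycle genes described here are 29 genes, chosen by name, that carry pyruvate into mitochondria, turn the cycle, and link it to glutamate, malate and exported citrate. All 29 were found among the 64252 Ensembl gene IDs of the count table, and all 29 passed the filter on low counts. They were measured by RNA-seq in Jurkat, a line from human acute lymphoblastic leukemia of T cells. The sh-SOX4 group, 2 libraries, carried a short hairpin RNA against SOX4, a SOXC transcription factor, and the sh-Scb group, 2 libraries, carried a scrambled hairpin. Both groups are the same line transfected with a hairpin; the hairpin sequences, any selection and the time after transfection are not stated by the labels or the design text.

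Pyruvate from glycolysis enters mitochondria through a carrier and is either oxidised to acetyl-CoA by the pyruvate dehydrogenase complex or carboxylated to oxaloacetate. The cycle then oxidises acetyl-CoA to supply electrons to the respiratory chain, while citrate, oxoglutarate and oxaloacetate leave it as precursors of lipids and amino acids. Glutamine, taken up and deaminated to glutamate, refills the cycle as oxoglutarate, a route known to be used heavily by proliferating T cells and leukemia cells.

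The libraries summed to 30830081 and 32872606 counts in sh-SOX4 and to 29093287 and 36636219 in sh-Scb, where 3 counts correspond to 0.0819 to 0.103 CPM (counts scaled to the library total). SOX4 itself had 191 and 199 normalized CPM in the sh-SOX4 libraries, against 271 and 277 in the sh-Scb libraries, a log2 fold change of -0.49 (SE 0.044). Mitochondrially encoded genes held 6.20% ± 0.042 of counts in sh-SOX4 and 4.78% ± 0.038 in sh-Scb (SD, n = 2 each); their part in the results below was not tested. All 10 T cell markers listed were counted in every library, at a summed 2430 CPM in both sh-SOX4 libraries and 2010 to 2050 CPM in sh-Scb. Of these markers CD4, CD247 and CD7 went the other way, at log2 fold changes of -0.61, -0.34 and -0.17. Of 5 myeloid markers LYZ was at 0 in every library and the summed level was 4.81 to 4.90 CPM in sh-SOX4 and 5.90 to 9.18 CPM in sh-Scb. The 3 epithelial markers summed to at most 1.07 CPM. Of 4 B cell markers, summing to 13.3 to 13.5 CPM in sh-SOX4 and 69.2 to 70.5 CPM in sh-Scb, CD79A made up nearly the whole. Of 3 fibroblast markers COL1A2 was at 0, and the sum was 18.7 to 19.0 CPM in sh-SOX4 and 27.6 to 30.0 CPM in sh-Scb, mostly COL1A1. Their part was not tested either. In a bulk library, fewer cells of a type and less RNA per cell cannot be told apart.

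Most enzymes of the cycle were higher in sh-SOX4 cells, while the mitochondrial citrate exporter SLC25A1 was lower by nearly 1 log2 unit. Of the 29 genes, 16 rose and 6 fell (75.9% called), and 7 did not pass. The rises were led by DLD, DLAT and SUCLA2 at log2 fold changes of 0.62 to 0.70, and the falls were SLC25A1, DLST, IDH2, IDH1, GLUD1 and MPC2. A gene is said here to have risen or fallen when edgeR's quasi-likelihood test gave an adjusted p under 0.05 over all 19897 IDs tested.

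These counts stand against a background in which 44.1% of all tested IDs were called, 23.2% higher and 20.9% lower. Well-measured genes were called more often, with 62.7% of the 10540 IDs at a mean of at least 10 CPM called, 36.7% higher and 25.9% lower. Of the 28 members at that level, all but ME3, 22 (78.6%) were called. The libraries of the groups did not overlap for 23 of 29 members, and for 72.9% of all tested IDs. The members' median log2 fold change was 0.20, against -0.01 over all tested IDs, and their summed level was 3130 and 3149 normalized CPM in sh-SOX4, against 2771 and 2759 in sh-Scb. With libraries scaled to their totals alone, the median over all IDs moved to -0.11 and that of the members to 0.10. Under that scaling 13 members were higher and 6 lower, and of calls over all IDs 40.8% were higher in place of 52.5%.

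**Figure D1:**
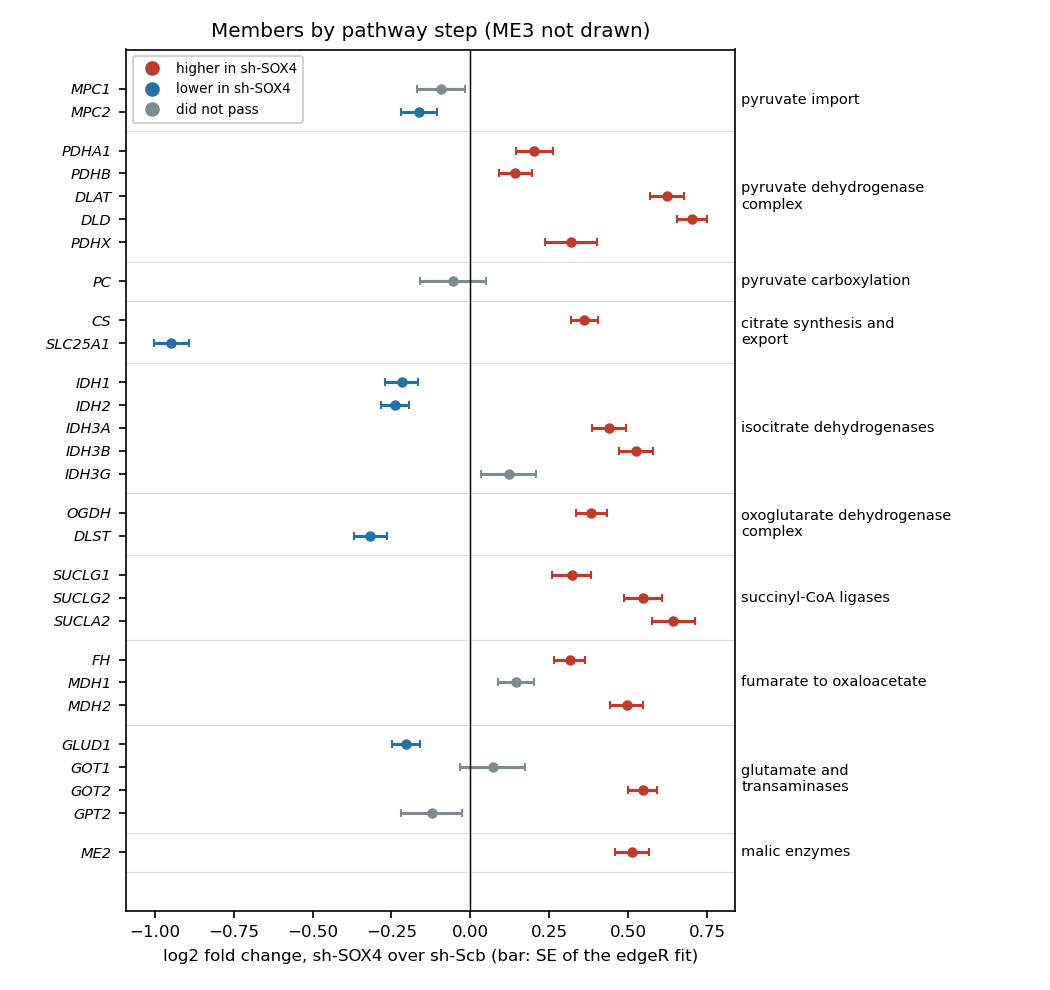
Log2 fold change of sh-SOX4 over sh-Scb (x axis; bars are the SE of the edgeR fit) for 28 members grouped by pathway step, with ME3 left out for its SE of 0.55. Points for the pyruvate dehydrogenase complex and the succinyl-CoA ligases all lie right of 0, and SLC25A1 lies farthest left at -0.95.

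Upstream DNA is shown for 4 members, chosen for the size or direction of their change: the largest rise (DLD), the largest fall (SLC25A1), and a riser and a faller whose upstream DNA holds the same site (SUCLA2 and GLUD1). The 250 bases before the RefSeq start site are given 5′ to 3′ on the gene's own strand, from GRCh38.p14. Capitals mark a match to 1 motif, on either strand: ACAAAG, the core bound by SOX factors, in DLD; CCAAT, the NF-Y box, in SLC25A1; and the site of nuclear respiratory factor NRF1, with 1 free base, in SUCLA2 and GLUD1.
DLD, chr7:107890857-107891106, plus strand: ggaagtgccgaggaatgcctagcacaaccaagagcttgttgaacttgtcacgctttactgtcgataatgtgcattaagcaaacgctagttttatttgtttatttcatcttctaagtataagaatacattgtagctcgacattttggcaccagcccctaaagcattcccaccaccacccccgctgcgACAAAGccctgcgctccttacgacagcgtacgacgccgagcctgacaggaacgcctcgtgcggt
SLC25A1, chr22:19178737-19178986, minus strand: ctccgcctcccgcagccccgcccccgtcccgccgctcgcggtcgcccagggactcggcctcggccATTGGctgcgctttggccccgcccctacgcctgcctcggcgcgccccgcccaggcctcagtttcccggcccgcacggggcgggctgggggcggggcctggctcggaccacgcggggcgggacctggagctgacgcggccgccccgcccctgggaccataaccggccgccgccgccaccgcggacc
SUCLA2, chr13:48001274-48001523, minus strand: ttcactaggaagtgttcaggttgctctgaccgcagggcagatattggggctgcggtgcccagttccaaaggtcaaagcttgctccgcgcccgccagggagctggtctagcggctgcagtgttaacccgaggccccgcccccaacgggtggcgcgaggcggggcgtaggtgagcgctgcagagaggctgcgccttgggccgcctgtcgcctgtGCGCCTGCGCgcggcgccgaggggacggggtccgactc
GLUD1, chr10:87094844-87095093, minus strand: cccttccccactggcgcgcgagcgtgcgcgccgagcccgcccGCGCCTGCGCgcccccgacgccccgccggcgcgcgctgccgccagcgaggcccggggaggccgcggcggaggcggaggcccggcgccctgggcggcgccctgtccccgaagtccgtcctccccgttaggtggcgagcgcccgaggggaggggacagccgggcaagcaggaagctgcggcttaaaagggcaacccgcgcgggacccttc

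A promoter window of 300 bases, 250 before and 50 after the first listed start, was found for 27 members; OGDH and GPT2 had none. The NRF1 site was in 5 of the 27 windows, those of MPC2, IDH3A, IDH3G, SUCLA2 and GLUD1, and in 6.28% of the windows of 27305 genes. Of these 5 genes IDH3A and SUCLA2 rose, MPC2 and GLUD1 fell and IDH3G did not pass. The SOX core ACAAAG was in 3 of the 27 windows (DLD, IDH3B and SUCLG1) and in 16.0% of all windows. These 3 genes rose, as did 16 of all 29 members, and a link to the site was not tested. The E-box CACGTG, bound by MYC, was in the windows of PDHB and ME3 and in 7.43% of all. CCAAT was in 17 of 27 windows and in 35.7% of all, and the ETS core CCGGAAG in 5 (IDH3B, IDH3G, DLST, MDH2 and ME2) and in 10.7% of all. The sterol response element TCACNCCAC was in the window of GOT1 alone among members, and in 1.15% of all; the estrogen-related receptor site TCAAGGTCA was in none of the 27 and in 0.359% of all. All were searched on both strands, and a match describes the letters only.

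Neither gene of pyruvate import rose, and MPC2 fell slightly. MPC1 and MPC2 encode the subunits that together form the mitochondrial pyruvate carrier. MPC2 had 64.7 and 68.1 CPM in sh-SOX4, against 75.1 and 73.4 in sh-Scb, so that the groups did not overlap. Its log2 fold change was -0.16 (SE 0.057) with an edgeR adjusted p of 0.0410. That call did not hold without any 1 of the libraries, with an edgeR adjusted p of 0.260 and 0.0579 without sh-SOX4 replicates 1 and 2, and 0.146 and 0.0621 without sh-Scb replicates 1 and 2. DCAF6 shares 22.5% of the exonic bases of MPC2. MPC1 had 48.6 and 44.4 CPM in sh-SOX4 and 51.3 and 47.9 in sh-Scb, and its ranges overlapped. Its log2 fold change of -0.09 had a 95% interval of -0.26 to 0.08 and did not pass.

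All 5 genes of the pyruvate dehydrogenase complex rose, unequally, and only DLAT and DLD kept the call under all 11 alternatives tried. DLAT, the acetyltransferase core, had 125 and 120.5 CPM in sh-SOX4, against 77.3 and 81.8 in sh-Scb. DLD, the dihydrolipoyl dehydrogenase that the oxoglutarate complex and other complexes also use, had 160.2 and 157 CPM in sh-SOX4, against 96.0 and 98.9 in sh-Scb. Every sh-SOX4 library was well above every sh-Scb library for both genes. The log2 fold changes were 0.62 (SE 0.053, edgeR adjusted p 8.83e-06) for DLAT and 0.70 (SE 0.048, edgeR adjusted p 1.96e-06) for DLD, the largest rise among the members.

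The other subunits moved less. PDHX, which anchors the dehydrogenase DLD to the core, had 60.4 and 58.3 CPM in sh-SOX4, against 43.9 and 51.5 in sh-Scb, a log2 fold change of 0.32 (SE 0.082). PDHA1, the decarboxylating alpha subunit and the target of the regulatory kinases, had 77.9 and 84.9 CPM in sh-SOX4, against 70.9 and 70.5 in sh-Scb. PDHB, its beta partner, had 85.8 and 83.4 CPM in sh-SOX4, against 77.0 and 76.3 in sh-Scb. Groups did not overlap for these 3 genes, but the changes of PDHA1 (0.20, SE 0.059) and PDHB (0.14, SE 0.052) were the smallest of the complex. The PDHB call, at an edgeR adjusted p of 0.0488, was lost under 10 of 11 alternatives. These included DESeq2 (its own adjusted p 0.156), limma-voom (its own adjusted p 0.0646) and leaving out any 1 library. Without 1 library its log2 fold change ran from 0.13 to 0.16. The PDHA1 call had an edgeR adjusted p of 0.0186, and 0.183 without sh-SOX4 replicate 2. Scaled to library totals alone, PDHA1, PDHB and PDHX did not pass, with log2 fold changes of 0.10, 0.04 and 0.22. MAP3K15 shares 21.3% of the exonic bases of PDHA1, which also has 1 annotated pseudogene copy.

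Because a ratio of counts within a library does not depend on its scaling, the subunits were also set against each other. There were 1.87 and 1.88 DLD counts per PDHB count in sh-SOX4, against 1.25 and 1.30 in sh-Scb. The DLAT to PDHB ratio was 1.45 and 1.44 in sh-SOX4, against 1.00 and 1.07 in sh-Scb. Both ratios were chosen after the values were seen and carry no test.

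Pyruvate carboxylase, PC, the enzyme of the other entry route, had 19.2 and 20.02 CPM in sh-SOX4 and 19.3 and 21.5 in sh-Scb. Its ranges overlapped, and its log2 fold change of -0.05 had a 95% interval of -0.29 to 0.18.

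**Figure D2:**
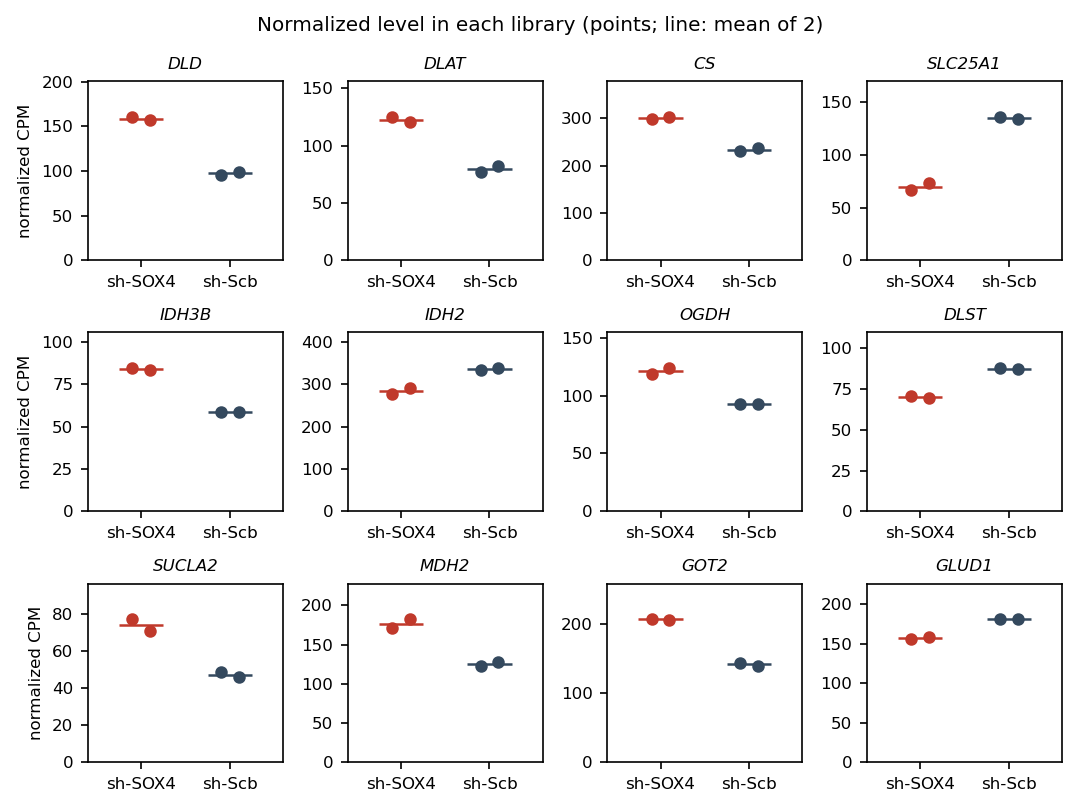
Normalized CPM (y axis, from 0) in each library for 12 members, sh-SOX4 left and sh-Scb right in each panel; points are libraries and lines the mean of 2. The points of the groups do not overlap in any panel, with SLC25A1, IDH2, DLST and GLUD1 lower in sh-SOX4 and the other 8 higher.

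The genes that make and export citrate moved apart. CS, citrate synthase, had 298 and 302 CPM in sh-SOX4, against 229.9 and 237 in sh-Scb, a log2 fold change of 0.36 (SE 0.042). SLC25A1, the carrier that exports citrate to the cytosol, where it feeds acetyl-CoA to lipid synthesis, had 66.8 and 72.8 CPM in sh-SOX4, against 135.5 and 134 in sh-Scb. This left 51.9% of the sh-Scb level, at a log2 fold change of -0.95 (SE 0.056) and an edgeR adjusted p of 8.53e-07, the largest change of any member in either direction. As background, SLC25A1 is known as a target of the sterol-sensing SREBP factors. There were 4.46 and 4.14 CS counts per SLC25A1 count in sh-SOX4, against 1.70 and 1.77 in sh-Scb. Reads of SLC25A1 could be shared with 5 pseudogene copies in the annotation.

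The isocitrate dehydrogenases divided by cofactor. IDH3A and IDH3B, the catalytic alpha and the beta subunit of the NAD-linked enzyme that serves the cycle, rose. IDH1 and IDH2, the NADP-linked enzymes of the cytosol and mitochondria, fell. IDH3B had 84.3 and 83.5 CPM in sh-SOX4, against 58.3 and 58.4 in sh-Scb, a log2 fold change of 0.52 (SE 0.054, edgeR adjusted p 3.18e-05). IDH3A had 114 and 112 CPM in sh-SOX4, against 80.5 and 86.2 in sh-Scb, a log2 fold change of 0.44 (SE 0.054), though 38.9% of its exonic bases lie in ACSBG1 or CIB2 as well. IDH3G, the regulatory gamma subunit, had 48.5 and 43.7 CPM in sh-SOX4 and 44.9 and 39.8 in sh-Scb. Its ranges overlapped and it did not pass, with a 95% interval of -0.07 to 0.31.

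IDH2 was the most abundant member per length and had 276 and 291 CPM in sh-SOX4, against 332 and 337 in sh-Scb. Its log2 fold change was -0.24 (SE 0.044, edgeR adjusted p 0.00140). IDH1 had 96.3 and 90.5 CPM in sh-SOX4, against 109 and 108 in sh-Scb, a log2 fold change of -0.22 (SE 0.052, edgeR adjusted p 0.00699). Groups did not overlap for either gene, but without sh-SOX4 replicate 2 the edgeR adjusted p of IDH1 was 0.0646. The IDH2 to IDH1 count ratio was 2.87 and 3.22 in sh-SOX4 and 3.05 and 3.12 in sh-Scb, with overlapping ranges. There were 0.412 and 0.385 IDH3A counts per IDH2 count in sh-SOX4, against 0.242 and 0.255 in sh-Scb.

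Opposite changes were also seen within the oxoglutarate dehydrogenase complex. OGDH, its decarboxylating subunit, had 119 and 123.5 CPM in sh-SOX4, against 93.0 in each sh-Scb library, a log2 fold change of 0.38 (SE 0.049). DLST, the succinyltransferase core, had 70.8 and 69.3 CPM in sh-SOX4, against 87.6 and 87.0 in sh-Scb. Its log2 fold change was -0.32 (SE 0.052, edgeR adjusted p 0.000714). DLD, the subunit this complex shares with pyruvate dehydrogenase, rose as given above. OGDH and DLST counts stood at 1.68 and 1.78 to 1 in sh-SOX4, against 1.06 and 1.07 to 1 in sh-Scb. OGDH and DLST both kept their calls under all 11 alternatives tried.

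All 3 succinyl-CoA ligase genes rose. SUCLA2, the ATP-forming beta subunit, had 77.1 and 70.6 CPM in sh-SOX4, against 48.7 and 45.8 in sh-Scb, a log2 fold change of 0.64 (SE 0.068, edgeR adjusted p 3.90e-05). SUCLG2, the GTP-forming beta subunit, had 69.97 and 68.3 CPM in sh-SOX4, against 46.7 and 47.9 in sh-Scb, a log2 fold change of 0.55 (SE 0.060, edgeR adjusted p 5.12e-05). SUCLG1, the alpha subunit that pairs with either, had 74.4 and 77.6 CPM in sh-SOX4, against 63.4 and 58.2 in sh-Scb, a log2 fold change of 0.32 (SE 0.063). The groups did not overlap for any of these genes, while the SUCLA2 to SUCLG2 count ratio overlapped between the groups, at 1.10 and 1.03 in sh-SOX4 and 1.04 and 0.956 in sh-Scb. SUCLA2 has 3 annotated pseudogene copies and SUCLG2 has 2.

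Of the enzymes from fumarate to oxaloacetate, the mitochondrial ones rose. FH, fumarase, had 108 and 107 CPM in sh-SOX4, against 87.5 and 85.1 in sh-Scb, a log2 fold change of 0.31 (SE 0.050). MDH2, the mitochondrial malate dehydrogenase, had 171 and 182 CPM in sh-SOX4, against 123 and 128 in sh-Scb, a log2 fold change of 0.50 (SE 0.051, edgeR adjusted p 3.36e-05). MDH1, its cytosolic counterpart, had 224 and 217 CPM in sh-SOX4, against 210.5 and 189 in sh-Scb. Its groups did not overlap, but its log2 fold change of 0.14 had an edgeR adjusted p of 0.0607. Without sh-Scb replicate 1 it was 0.23 with an edgeR adjusted p of 0.000646.

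Of the 4 members that act on glutamate, GOT2 rose, GLUD1 fell, and GOT1 and GPT2 did not pass. GOT2, the mitochondrial aspartate transaminase, had 207 and 206 CPM in sh-SOX4, against 144 and 139 in sh-Scb, a log2 fold change of 0.55 (SE 0.045, edgeR adjusted p 6.96e-06). GLUD1, the glutamate dehydrogenase that gives oxoglutarate and ammonia, had 156 and 158.5 CPM in sh-SOX4, against 181 in each sh-Scb library. Its log2 fold change was -0.20 (SE 0.044, edgeR adjusted p 0.00392). The near-identical gene GLUD2 had 6 and 7 counts in sh-SOX4 and 11 and 5 in sh-Scb. GLUD1 also has 5 annotated pseudogene copies and GOT2 has 4, so that reads could be shared.

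GOT1, the cytosolic aspartate transaminase, had 39.4 and 42.9 CPM in sh-SOX4 and 43.0 and 35.3 in sh-Scb, and GPT2, the mitochondrial alanine transaminase, had 28.1 and 29.4 in sh-SOX4 and 33.5 and 29.1 in sh-Scb. Ranges overlapped for both, and their 95% intervals of -0.16 to 0.30 and -0.34 to 0.09 on the log2 scale included 0. The sign for GOT1 turned negative with library totals alone.

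Of the malic enzymes, ME2, which turns malate into pyruvate with NAD in mitochondria, had 160 and 163 CPM in sh-SOX4, against 108.5 and 118 in sh-Scb. It rose by 0.51 on the log2 scale (SE 0.054, edgeR adjusted p 3.66e-05). ME3, the NADP-linked mitochondrial form, had 21 and 11 counts in sh-SOX4 and 11 and 23 in sh-Scb. Its 95% interval ran from -1.22 to 1.22 on the log2 scale, and a change within it was not detectable at this depth.

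The count ratios of 3 pairs of a mitochondrial and a cytosolic enzyme, and of the pair of ligase beta subunits, were compared by an exact two-sided permutation test over the 4 libraries, whose smallest possible p is 0.333. The MDH2 to MDH1 ratio was 0.761 and 0.840 in sh-SOX4, against 0.584 and 0.677 in sh-Scb, 1.27-fold higher. The GOT2 to GOT1 ratio was 5.24 and 4.80 in sh-SOX4, against 3.34 and 3.95 in sh-Scb, 1.38-fold higher. Groups did not overlap for either, at an exact p of 0.333 and 0.666 adjusted over the 4 ratios tested. IDH2 to IDH1 and SUCLA2 to SUCLG2 gave an exact p of 1.0 and 0.667, or 1.0 and 0.889 adjusted. Of the 26 members whose product works in mitochondria 16 rose and 5 fell (80.8% called). Of the 3 whose products work in the cytosol, IDH1 fell and MDH1 and GOT1 did not pass (33.3% called). Over all tested IDs 44.1% were called, and 62.7% of those at a mean of at least 10 CPM, a level that ME3 did not reach. The difference between these sets, of which the cytosolic one has only 3 genes, was not tested.

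**Figure D3:**
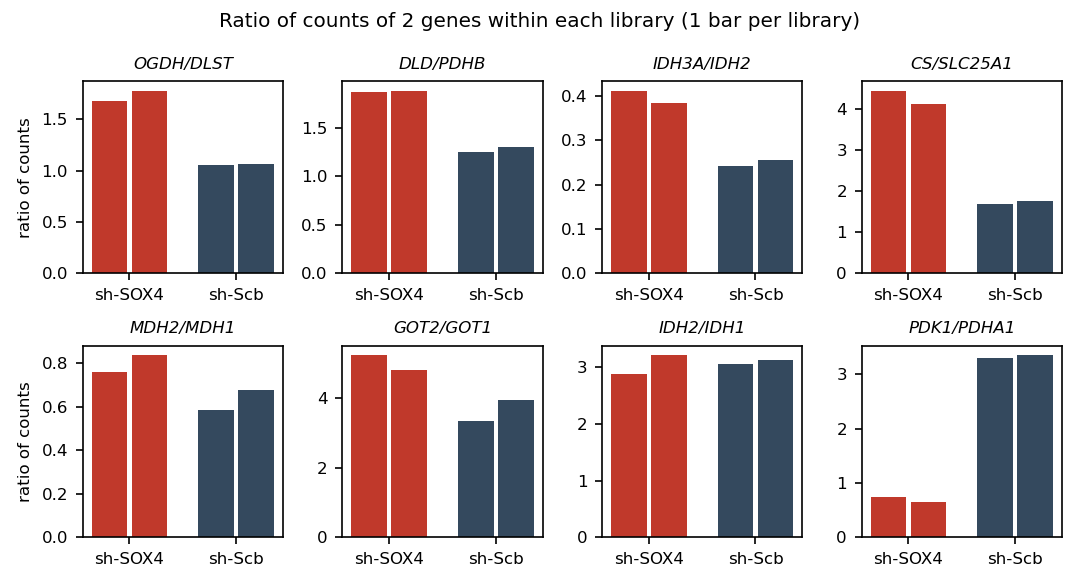
Ratio of the counts of a pair of genes within each library (y axis, from 0; 1 bar per library, sh-SOX4 left and sh-Scb right). CS over SLC25A1 is above 4 in sh-SOX4 and under 2 in sh-Scb, PDK1 over PDHA1 is under 1 in sh-SOX4 and above 3 in sh-Scb, and the IDH2 to IDH1 bars overlap.

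Levels between genes were compared per kilobase of merged exon, which undercounts genes annotated with long rare exons. In sh-SOX4 IDH2 was the most abundant at 101 CPM per kilobase, then GOT2 at 54.8, FH at 50.1, MDH2 at 48.5 and CS at 46.8. In sh-Scb IDH2 was first at 119 CPM per kilobase, then SLC25A1 at 64.2, GLUD1 at 51.4, FH at 40.3 and MDH1 at 40.0. SLC25A1 stood at 33.3 CPM per kilobase in sh-SOX4, and ME3 was lowest in both groups at 0.134 and 0.137. PC and GPT2 were next lowest, at 3.31 and 4.52 CPM per kilobase in sh-SOX4 and 3.44 and 4.92 in sh-Scb.

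The other genes of the pathway, from lists of 46 genes of which 39 passed the filter, gave 18 rises and 10 falls, or 71.8% called. That share stands against 44.1% of all tested IDs. It is not matched to the 62.7% of IDs at a mean of at least 10 CPM, because some of the 39 genes lay under that level. With library totals alone the counts were 16 higher and 14 lower. The kinases that switch off pyruvate dehydrogenase by phosphorylation, and the phosphatases that reverse it, did not rise. Among 6 measured, 4 fell (66.7% called) and none was higher. Over all tested IDs 44.1% were called and 20.9% were lower. Among IDs at a mean of at least 10 CPM, which these 6 reached, 62.7% were called and 25.9% were lower. PDK1 had 58.4 and 54.8 CPM in sh-SOX4, against 234 and 236 in sh-Scb, a log2 fold change of -2.05 (SE 0.052). There were 0.749 and 0.646 PDK1 counts per PDHA1 count in sh-SOX4, against 3.29 and 3.36 in sh-Scb. PDK3 had 18.9 and 20.7 CPM in sh-SOX4, against 43.3 and 39.3 in sh-Scb, while PDK4 had 0 counts in every library. The phosphatase PDP1 had 45.3 and 44.8 CPM in sh-SOX4, against 70.4 and 70.3 in sh-Scb, a log2 fold change of -0.64 (SE 0.060). PDPR, the phosphatase regulatory subunit, fell by 0.29 (SE 0.044). PDK2 overlapped between the groups, at 27.5 and 28.0 CPM in sh-SOX4 and 25.8 and 28.0 in sh-Scb.

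Enzymes of the cycle outside the 29 were listed with the related enzymes OGDHL, DHTKD1, PCK2 and NNT. The list gave 3 rises and 3 falls among 9 measured, or 66.7% called. All 9 had a mean of at least 10 CPM, where 62.7% of IDs were called, against 44.1% of all tested IDs. When only IDs reaching 10 CPM in 2 libraries were kept, 2 were higher and 5 lower, as they were with library totals alone. Succinate dehydrogenase, the enzyme shared by the cycle and the respiratory chain, was divided: SDHB, the iron-sulfur subunit, rose by 0.66 (SE 0.067) and SDHA, the flavoprotein, fell by 0.41 (SE 0.052). SDHB had 82.7 and 80.2 CPM in sh-SOX4, against 54.5 and 48.9 in sh-Scb, and SDHA had 86.3 and 82.0 in sh-SOX4, against 113 and 110.4 in sh-Scb. SDHA has 3 annotated pseudogene copies. SDHC, a membrane anchor, had a log2 fold change of 0.16 (edgeR adjusted p 0.0343), a call lost under 7 of 11 alternatives. Its edgeR adjusted p was 0.200 without sh-SOX4 replicate 2 and 0.190 without sh-Scb replicate 2, and its log2 fold change was 0.06 with library totals alone. ACO1, the cytosolic aconitase, which turns citrate into isocitrate, did not pass (-0.10 on the log2 scale, SE 0.054). It did pass with library totals alone, at -0.20 (edgeR adjusted p 0.0134), and when IDs under 10 CPM were dropped, at -0.16 (edgeR adjusted p 0.0265). DHTKD1 and OGDHL, relatives of OGDH, fell by 0.78 (SE 0.060) and 0.77 (SE 0.11), and PCK2, the mitochondrial enzyme that makes phosphoenolpyruvate from oxaloacetate, rose by 0.54 (SE 0.082).

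On the glutamine side, 8 of 11 measured genes rose and 1 fell, or 81.8% called. Of all tested IDs 44.1% were called, and 62.7% of those at a mean of at least 10 CPM, a level that GPT of this list did not reach. GLUL, glutamine synthetase, which makes glutamine from glutamate, was the one that fell, with 376 and 370 CPM in sh-SOX4, against 685.5 and 671 in sh-Scb, a log2 fold change of -0.86 (SE 0.039). PSAT1, the serine pathway transaminase that yields oxoglutarate from glutamate, rose by 0.71 (SE 0.043). ASNS, asparagine synthetase, which spends glutamine, rose by 0.74 (SE 0.059), although an overlapping gene covers 44.6% of its exons. SLC38A1, a plasma membrane glutamine transporter, had 251 and 245 CPM in sh-SOX4, against 169 and 178 in sh-Scb. SLC1A5, a further one named after its values were seen, had 105 and 116 in sh-SOX4, against 79.8 and 75.2 in sh-Scb. The transporter SLC38A2, also named after its values were seen, overlapped between the groups and did not pass, at a log2 fold change of -0.12. It passed as lower with library totals alone (-0.22, edgeR adjusted p 0.0116) and with the 10 CPM filter (-0.18, edgeR adjusted p 0.0143).

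Mitochondrial carriers of cycle intermediates and glutamate rose in 5 of 6 measured cases. Of all tested IDs 23.2% were higher, and 36.7% of those at a mean of at least 10 CPM. The second share is not matched to this list, because SLC25A13 and SLC25A18 lay under that level. The smallest of the 5 rises, SLC25A10 at 0.30 (SE 0.091), did not pass with library totals alone (edgeR adjusted p 0.105). It did not pass in DESeq2 either (its own adjusted p 0.0616), and an overlapping gene covers 46.6% of its exonic bases. SLC25A13, an aspartate-glutamate carrier of the malate-aspartate shuttle, had 9.33 and 8.40 CPM in sh-SOX4, against 2.72 and 3.55 in sh-Scb, a log2 fold change of 1.50 (SE 0.19). Its relative SLC25A12 rose by 0.51 (SE 0.077) and the glutamate carrier SLC25A22 by 0.79 (SE 0.11). In the cytosol the genes that make acetyl-CoA fell, namely ACLY, which splits the exported citrate, and ACSS2, which uses acetate. ACLY had 406 and 420.4 CPM in sh-SOX4, against 907 and 894 in sh-Scb, and ACSS2 had 16.9 and 21.5 in sh-SOX4, against 85.0 and 82.8 in sh-Scb. ME1, the cytosolic malic enzyme, had 0 and 3 counts in sh-SOX4 and 11 and 2 in sh-Scb and was not tested.

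Of 4 genes for the lipoyl cofactor that DLAT and DLST carry, 2 rose and none fell, beside 44.1% of all tested IDs called. MCAT, of the mitochondrial fatty acid synthesis that supplies the cofactor's precursor, had 20.4 and 19.8 CPM in sh-SOX4, against 8.94 and 9.06 in sh-Scb, a log2 fold change of 1.16 (SE 0.11). LIAS, lipoyl synthase, rose by 0.57 (SE 0.11). D2HGDH, a dehydrogenase that removes hydroxyglutarate, overlapped between the groups and did not pass.

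**Figure D4:**
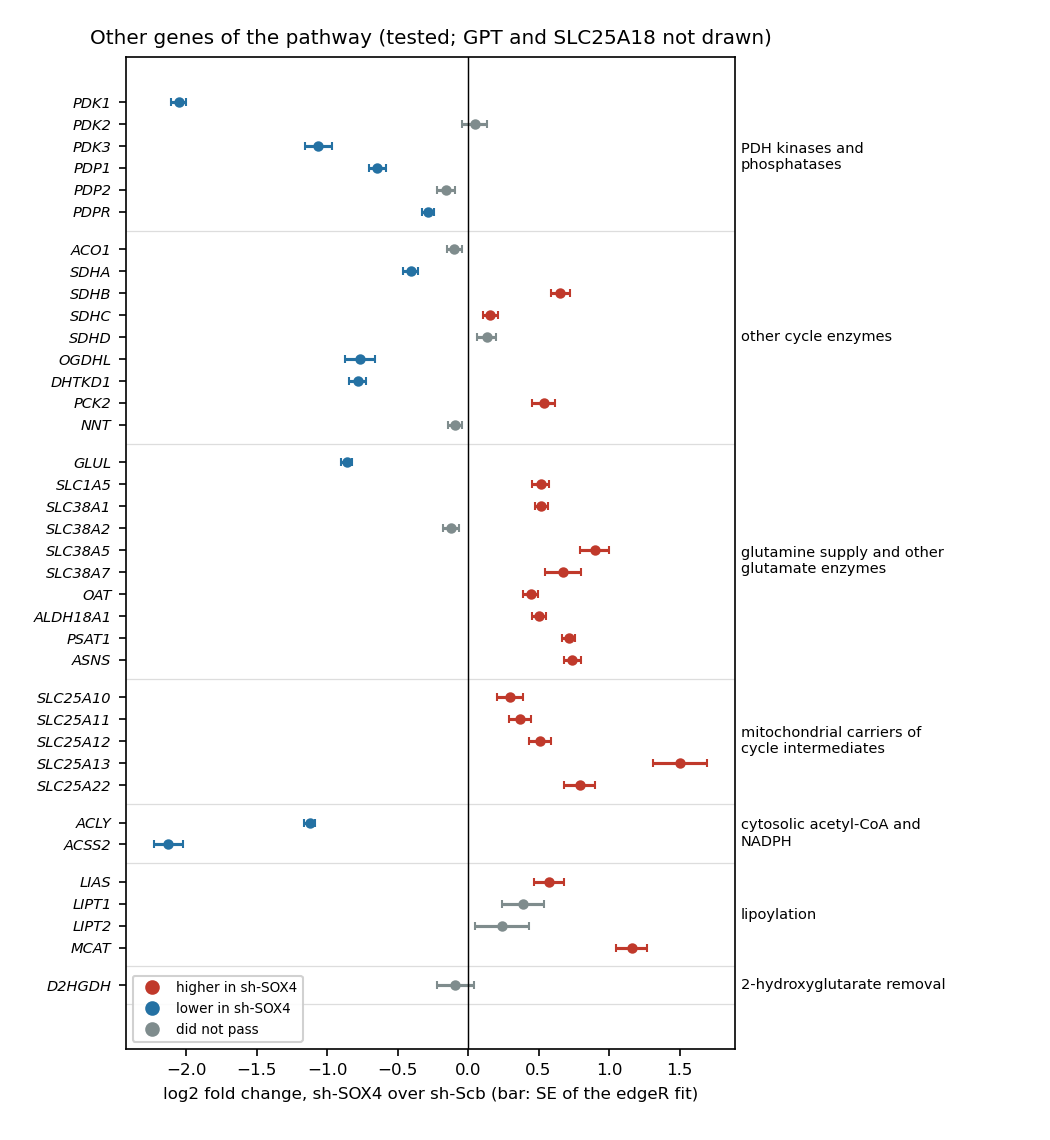
Log2 fold change of sh-SOX4 over sh-Scb (x axis; bars are the SE of the edgeR fit) for 37 of the 39 tested genes outside the members, grouped by role; GPT and SLC25A18 are left out for their large SE. PDK1, ACSS2 and ACLY lie farthest left and SLC25A13 and MCAT farthest right, at 1.50 and 1.16.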

How the data were processed

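The authors deposited unnormalized whole-number counts for each Ensembl gene ID and library. HISAT2 2.2.0, StringTie and hg38 are named in the submitters' processing notes, without the annotation or strand setting, so overlapping genes may share reads. Libraries were made with a TruSeq kit, per the labels' protocols. Columns headed NC were taken as sh-Scb. Symbols were found for 56105 of 64252 IDs; coordinates and exons are from GENCODE 29 (GRCh38), promoters from RefSeq (GRCh38.p14).

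IDs passing edgeR's filterByExpr (at least 10 counts, 15 in total) were TMM-scaled and compared with the robust quasi-likelihood test (edgeR 4.0.16, R 4.3.3), Benjamini-Hochberg adjusted over 19897 IDs. CPM values are TMM-normalized; marker sums and depth floors use library totals. Intervals of fold changes are 95% and from the model; the 3-count floor covers counting error only. The biological coefficient of variation was 0.101 on 2 residual degrees of freedom. No label names separate cultures: the p-values reflect spread among these libraries alone, perhaps technical. Libraries within a group differed beyond sampling (median chi-square per gene 1.60 in sh-SOX4 and 1.71 in sh-Scb, 0.455 for sampling alone).

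Tried besides were DESeq2 1.42.0, limma-voom (limma 3.58.1), other scalings (median-ratio, totals), other filters (none, 10 CPM in 2 libraries), a replicate block, and dropping each library. In simulated data of 2 libraries against 2, 27 of 19138 unchanged genes were called. Of genes changed 1.5-fold, 2-fold and 4-fold, 29 of 68 (42.6%), 45 of 68 (66.2%) and 49 of 56 (87.5%) were called. Far fewer genes were changed than are called here, so the check does not give the share of wrong calls in these data. Members and gene lists were chosen with earlier results of these data known. All members are named, and from each other list up to 3 called genes with the smallest adjusted p in each direction. PDPR, PDK2, PDK4, ACO1, NNT, GLUD2, SLC1A5, SLC38A2, SLC25A10, ME1, D2HGDH and CD7 were added after their values were seen. Some genes of the other lists are not reported here.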

Additional observations from a re-analysis of the deposited data

How the results depend on the processing

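The counts of members called stayed within 1.5 times under all 11 alternatives, at 13 to 16 higher and 4 to 6 lower. Of the 22 called members, 17 (13 higher and 4 lower) kept the call under every one; the other 5 were MPC2, PDHA1, PDHB, PDHX and IDH1. The members' median log2 fold change was 0.10 with library totals alone, and ran between 0.23 and 0.29 with 1 library left out, a fit in which the lone library of a group is assumed to vary like the other group. The numbers 1 and 2 are not known to pair libraries (correlation of deviations -0.0103); with a replicate block 15 members were higher and 5 lower, and MPC2 and PDHB were the members that lost the call, at an edgeR adjusted p of 0.0631 and 0.0765. The mitochondrially encoded share differed by 1.42 percentage points, and by 1.63 without mitochondrial rRNA and tRNA. Signs turned for these genes, none of which passed with all libraries: with library totals, GOT1 was -0.028, ME3 -0.10 and PDK2 -0.053; with no filter ME3 was -0.0016; with at least 10 CPM in 2 libraries PDK2 was -0.018. Leaving out 1 library gave ranges of -0.069 to 0.23 for GOT1, -0.55 to 0.82 for ME3, -0.13 to 0.021 for PC, -0.0076 to 0.10 for PDK2 and -0.24 to 0.062 for D2HGDH. The SDHC call was lost with library totals (edgeR adjusted p 0.398), no filter (0.069), the 10 CPM filter (0.139) and the replicate block (0.0604), and in DESeq2 (its own adjusted p 0.0718). NNT passed as lower with library totals (edgeR adjusted p 0.0103) and the 10 CPM filter (0.0147). The causes were not tested. ME3 was not among the IDs at 10 CPM and had no adjusted p in DESeq2.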
